A study of Mus musculus with 12 samples.

Results

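The genes described here are 10 mouse genes of T cells and intraepithelial lymphocytes, measured in laser-dissected mucosa of the ileum and the colon. They are Cd3e and Cd3g of the T cell receptor complex, the co-receptors Cd8a and Cd4, the integrin Itgae, the granzymes Gzma and Gzmb, the chemokine Ccl5, the homing receptor Ccr9 and its ligand Ccl25. A gene was included where the platform annotation gave a row of the deposited array table its symbol and no other. The 10 genes, of 31276 in all, were covered by 209 rows, each a part of an exon or a junction between exons. The value of a gene on an array was the median of its rows, on the log2 scale.

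The study set mice described as FSPCre-PPARB -/- against PPARB flox/flox littermates. PPARβ/δ, encoded by Ppard, is a nuclear receptor that responds to fatty acids, and the Cre recombinase was driven by the FSP promoter, named for a protein of fibroblasts. There were 4 groups of 3 arrays each, namely knockout ileum, floxed ileum, knockout colon and floxed colon, from untreated male C57BL6/J mice of 4 to 6 weeks. In all 4 groups a laser microscope was used to take mucosa out of stained tissue sections, and the RNA was prepared with a kit made for very small amounts of RNA.

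Intraepithelial lymphocytes are T cells that sit between the epithelial cells of the gut. Many carry the CD8 co-receptor and hold granzymes ready for release, and the integrin αE, the product of Itgae, binds them to E-cadherin on epithelial cells. Epithelial cells of the small intestine release the chemokine CCL25, and T cells that carry its receptor, CCR9, follow it into that tissue.

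Some facts of the whole series bear on these genes. The labels name mucosa as the tissue throughout, except for a single field that names sectioned tumors. They give neither the mouse behind each sample nor the exons deleted in Ppard. What the p-values measure is thus the spread between samples. Some of it may be technical, and colon and ileum samples may come from the same mice. The gene value of Ppard was 6.95, 6.61 and 6.78 in knockout ileum against 6.49, 6.15 and 6.54 in floxed ileum, and it ran from 6.42 to 7.27 in knockout colon against 6.63 to 6.91 in floxed colon. It was thus not lower in the arrays labelled knockout, and with the deleted exons not given it is no check of the labels.

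The T cell genes gave signals within the range of the negative controls, as did most genes of the array. The mean gene value of each of the 10 genes lay below 5.85, the 95th percentile of the 5222 negative control rows of the array, whose median was 2.53. Among all genes, Cd8a, the brightest of the 10, stood at percentile 80 and Ccr9, the dimmest, at percentile 30.2. Most of all genes thus lay below 5.85 as well. Single rows were brighter, and 36 of the 209 rows (17.2%) had a mean above that level, against 18.6% of all 719071 exon and junction rows. Itgae and Ccl25 each had 9 such rows, of 64 and 28 rows, while Cd8a, Gzma and Ccr9 had 1 each. Rows of different sequence bind to different degrees, so levels are compared between samples and not between genes. At values this close to the controls, log2 differences can understate differences in RNA, which was not tested here. In bulk samples, fewer cells of a type and less RNA per cell cannot be told apart.

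**Figure D1:**
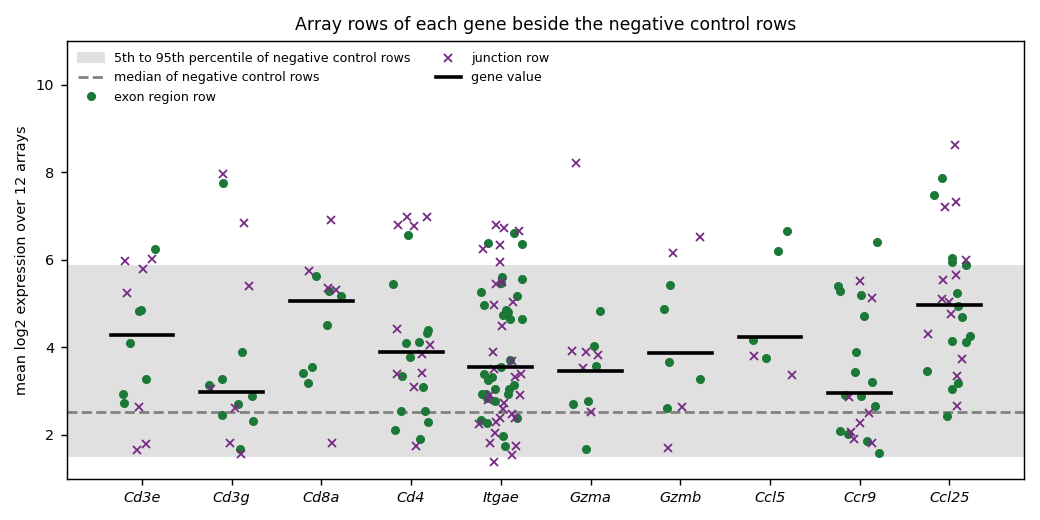
Mean log2 expression over the 12 arrays (vertical axis) of each exon region row (circles) and junction row (crosses) of the 10 genes (horizontal axis), with the mean gene value as a bar. The grey band spans the 5th to the 95th percentile (1.51 to 5.85) of the negative control rows and holds most rows of each gene and all 10 gene values.

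Ccl25 was the member that differed between the tissues. As measured, with colon values in the range of the negative controls, it was 3.26-fold higher in ileum than in colon mucosa of knockout mice and 3.09-fold higher in floxed mice, and no ileum array overlapped a colon array. Ccr9, the receptor for CCL25 on T cells, showed no such difference.

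The 3 knockout ileum arrays had Ccl25 values of 6.28, 5.07 and 6.31, and the 3 floxed ileum arrays had 6.18, 5.52 and 5.38. The knockout colon arrays had 4.26, 4.02 and 4.26, and the floxed colon arrays had 3.91, 4.16 and 4.12. All 6 ileum arrays stood above all 6 colon arrays, while knockout and floxed arrays overlapped within each tissue. The means were 5.88 ± 0.70 in knockout ileum, 5.69 ± 0.43 in floxed ileum, 4.18 ± 0.14 in knockout colon and 4.07 ± 0.14 in floxed colon (SD, n = 3 each).

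The ileum minus colon difference of Ccl25 was 1.70 in knockout mice (95% interval 1.06 to 2.34, limma adjusted p = 0.0144) and 1.63 in floxed mice (0.99 to 2.27, adjusted p = 0.0257). Averaged over both genotypes it was 1.67 (1.21 to 2.12, adjusted p = 0.00063). Of all genes, 0.79% were called in knockout mice, 0.588% in floxed mice and 1.81% over both genotypes at an adjusted p under 0.05, so the 1 member of 10 that was called is set against shares of that size. Groups of both genotypes that did not overlap between the tissues, with ileum higher, were found for 0.959% of genes.

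The call over both genotypes held under all 18 alternative settings, with adjusted p up to 0.00325. Within 1 genotype the call was lost on leaving out some single arrays, which also leaves fewer samples in a group. In knockout mice the call of Ccl25 was lost without knockout colon array 2 (adjusted p = 0.091), knockout ileum array 1 (0.0667) or knockout ileum array 3 (0.0808), with differences of 1.62, 1.51 and 1.49. In floxed mice it was lost without any 1 of floxed colon arrays 1, 2 and 3 (0.114, 0.0828 and 0.0987) or floxed ileum arrays 1 and 3 (0.146 and 0.056), with differences between 1.38 and 1.79.

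**Figure D2:**
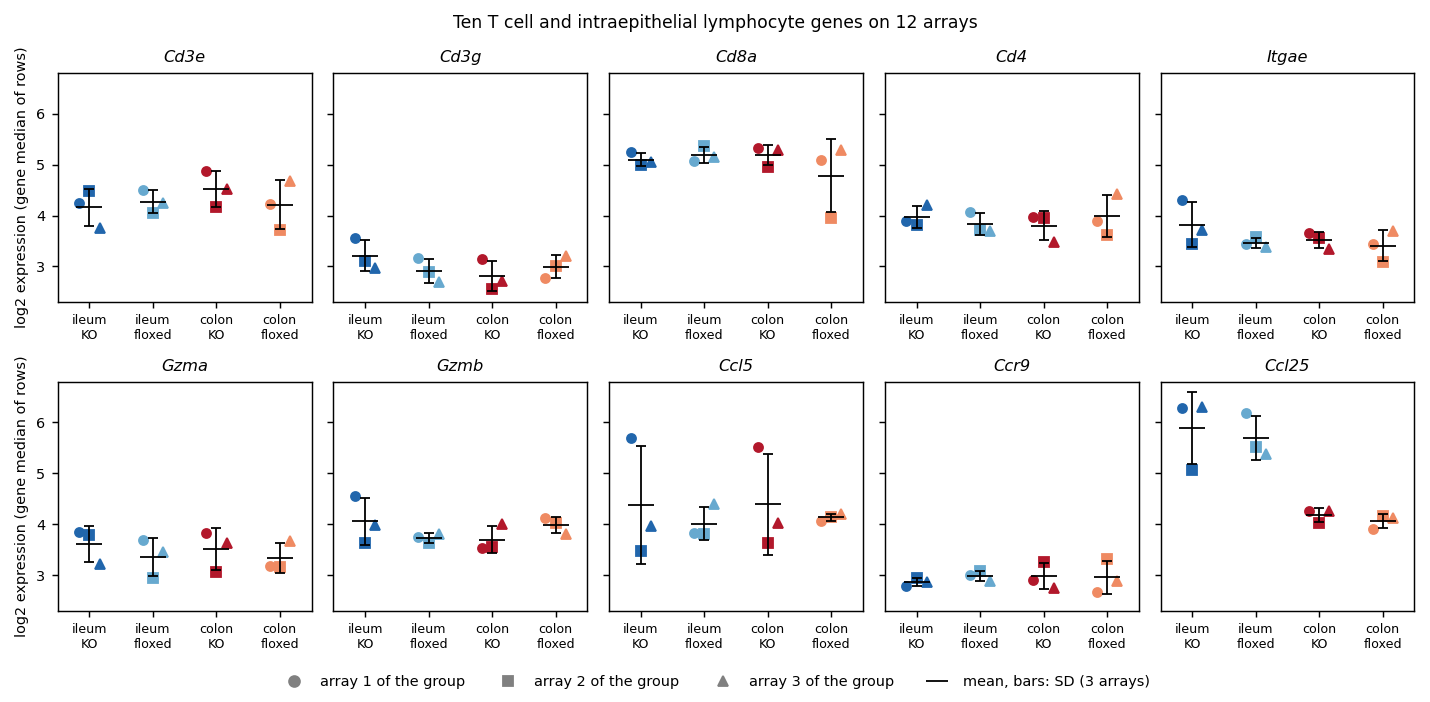
Gene values of the 10 genes on the 12 arrays (log2, vertical axis) by group, with the arrays of a group as separate symbols and the mean with its SD in black. For Ccl25 all 6 ileum arrays lie above all 6 colon arrays, and Ccl5 stands high on array 1 of both knockout groups.

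The tissue difference of Ccl25 was not even over its rows. Of its 28 rows, 10 were called higher in ileum over both genotypes, while 0.592% of all rows were called in that direction. Row names carry numbers that follow the order of genes along the chromosome. For 427 plus-strand genes of chromosome 8, the median exon row number ranked as the gene start in RefSeq did (Spearman's rho of 1.0). The order of rows within a gene was not checked. The blocks of rows below were chosen after their values were seen and are given as a description.

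The first 6 exon rows, numbered 420 to 429, had ileum minus colon differences between -0.12 and 0.13 over both genotypes, and none was called. The next 9 exon rows, numbered 432 to 442, had differences between 0.26 and 2.98 with a median of 2.47, and 8 of them were called. Exon row 440, at 0.37 in knockout and 0.14 in floxed mice, was the one row of the second block that was not called.

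Exon row 420 read between 7.23 and 7.62 on all 12 arrays and so differed little between any samples. Exon row 432 read 9.45, 9.85 and 9.39 in knockout ileum and 9.53, 8.73 and 8.86 in floxed ileum, against 7.10, 6.59 and 6.22 in knockout colon and 6.51, 5.73 and 6.41 in floxed colon. On that row the lowest ileum array stood well above the highest colon array. Of the 13 junction rows, 2 were called. Junction row 244 read 7.81, 7.39 and 7.55 in knockout ileum and 7.83, 7.58 and 7.02 in floxed ileum, against 4.24, 3.90 and 4.59 in knockout colon and 3.92, 2.62 and 3.49 in floxed colon. The called junction rows, 239 and 244, differed by 3.44 and 3.74 over both genotypes. All their colon readings lay below the 95th percentile of the negative control rows, so no fold is given. The brightest row of Ccl25, junction row 237, differed by 0.13 in knockout and 0.22 in floxed mice and was not called.

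**Figure D3:**
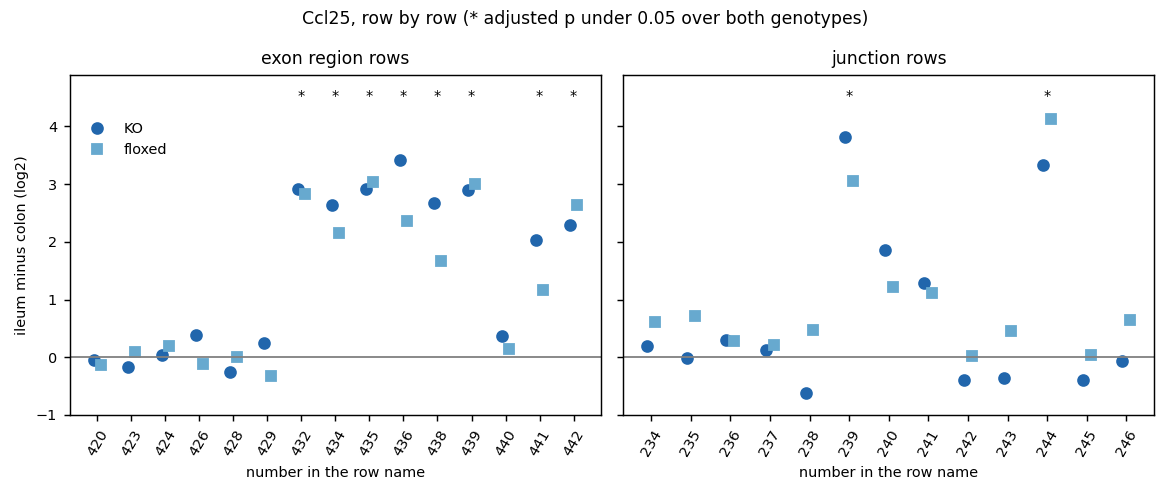
Ileum minus colon difference (log2, vertical axis) of each Ccl25 row in knockout (circles) and floxed mice (squares), for exon region rows (left) and junction rows (right) in the order of the number in the row name. Exon rows 420 to 429 lie near 0, and 8 of the 9 exon rows from 432 to 442 and 2 junction rows carry a star for an adjusted p under 0.05 over both genotypes.

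The gene value of Ccl25, a median over all 28 rows, mixes rows that differed between the tissues with rows that did not. It gave 1.67 over both genotypes, whereas the mean of the rows gave 1.13 and the median of the exon rows alone gave 1.88. Over exon rows 432 to 442 the median was 7.36, 6.43 and 6.66 in knockout ileum and 6.67, 5.81 and 6.31 in floxed ileum, against 4.41, 3.91 and 3.83 in knockout colon and 4.07, 4.09 and 4.13 in floxed colon.

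RefSeq gives Ccl25 a pair of start sites on the plus strand of chromosome 8, 24378 bases apart (build GRCm38.p6). The 250 bases before each are shown because the exon rows called between the tissues fell in the later run of row numbers. Capitals mark matches to TATAAA and to CCAAT on either strand, which reads ATTGG on the opposite one, and the letters of both motifs do not overlap here.
Ccl25 upstream start, chr8:4324960-4325209: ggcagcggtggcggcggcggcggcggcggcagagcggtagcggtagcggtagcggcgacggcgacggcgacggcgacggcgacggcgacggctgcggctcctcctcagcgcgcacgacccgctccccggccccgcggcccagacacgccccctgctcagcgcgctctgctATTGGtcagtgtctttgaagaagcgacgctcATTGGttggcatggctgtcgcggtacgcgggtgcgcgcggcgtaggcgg
Ccl25 downstream start, chr8:4349338-4349587: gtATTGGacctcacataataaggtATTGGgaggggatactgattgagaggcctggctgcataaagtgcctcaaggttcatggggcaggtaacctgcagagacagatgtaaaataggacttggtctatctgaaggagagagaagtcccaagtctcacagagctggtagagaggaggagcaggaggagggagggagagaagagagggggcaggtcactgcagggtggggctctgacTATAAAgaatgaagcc

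The window before the upstream start held 45 CG dinucleotides and was 74.8% G or C, with no TATAAA and 2 matches to CCAAT. The window before the downstream start held 0 CG dinucleotides and was 51.6% G or C, with 1 TATAAA whose first base lay 16 bases before the start, and 2 matches to CCAAT. Over all 32851 promoter windows of that length, 12.4% held TATAAA and 33.8% held CCAAT, and the median window had 6 CG dinucleotides. A match to such letters is a description and not a binding site. Which rows are read from which start was not tested.

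Ccr9 values were 2.80, 2.95 and 2.86 in knockout ileum and 3.00, 3.08 and 2.89 in floxed ileum, against 2.91, 3.26 and 2.76 in knockout colon and 2.68, 3.32 and 2.89 in floxed colon. The 4 groups overlapped, and 38.8% of the negative control rows read as high as Ccr9 or higher. Its ileum minus colon difference over both genotypes was -0.04 (95% interval -0.31 to 0.23, limma adjusted p = 0.975). At readings this low the interval does not limit a change in RNA. Of its 23 rows, 0 were called by limma in any contrast.

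The other 9 members were not called between the tissues in either genotype or over both. Over both genotypes their differences ran from -0.15 for Cd3e to 0.18 for Itgae. For 8 of the 9, leaving out Ccl5, the 95% intervals lay between -0.55 and 0.58, and for Ccl5 the interval ran from -0.86 to 0.72. In the order of the 4 group means, 29 of the 30 pairs of neighbouring groups overlapped, the exception being Ccl25 in floxed ileum over knockout colon. This count was not taken over all genes and is given as a description.

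Cd3e and Cd3g encode chains of CD3, the signalling part of the T cell receptor. Cd3e read 4.26, 4.47 and 3.76 in knockout ileum, 4.51, 4.05 and 4.25 in floxed ileum, 4.88, 4.18 and 4.52 in knockout colon and 4.22, 3.73 and 4.69 in floxed colon. Cd3g read 3.55, 3.10 and 2.97 in knockout ileum, 3.16, 2.89 and 2.69 in floxed ileum, 3.15, 2.56 and 2.72 in knockout colon and 2.77, 3.01 and 3.21 in floxed colon. Neither gene had groups that stood apart. Their knockout minus floxed differences pointed opposite ways in each tissue, at -0.11 for Cd3e and 0.29 for Cd3g in ileum and at 0.32 and -0.19 in colon. None of these was called by limma (adjusted p of 0.735 or more).

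Cd8a encodes the co-receptor of cytotoxic T cells and of many intraepithelial lymphocytes, and Cd4 that of helper T cells. Cd8a read 5.24, 5.0 and 5.05 in knockout ileum, 5.07, 5.37 and 5.15 in floxed ileum, 5.32, 4.95 and 5.29 in knockout colon and 5.09, 3.96 and 5.28 in floxed colon. Floxed colon array 2 alone was low, and the other 11 arrays lay within 4.95 and 5.37. The knockout minus floxed difference of Cd8a in colon, 0.41 (95% interval -0.18 to 1.00, limma adjusted p = 0.844), became 0.00 without that array. Cd4 read 3.89, 3.82 and 4.22 in knockout ileum, 4.08, 3.71 and 3.70 in floxed ileum, 3.98, 3.94 and 3.47 in knockout colon and 3.89, 3.62 and 4.43 in floxed colon, with all groups overlapping.

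Itgae read 4.30, 3.43 and 3.71 in knockout ileum, 3.44, 3.58 and 3.39 in floxed ileum, 3.65, 3.55 and 3.34 in knockout colon and 3.45, 3.09 and 3.70 in floxed colon. Knockout ileum array 1 was the highest, and the other arrays of all groups overlapped. The knockout minus floxed difference in ileum was 0.35 (95% interval -0.12 to 0.81, limma adjusted p = 0.716), and it had the smallest adjusted p of the 10 members there. Of its 64 rows 1, a junction, was called higher in ileum over both genotypes (1.19, adjusted p = 0.03). That row read 4.19, 3.33 and 4.35 in knockout ileum and 4.17, 3.96 and 3.52 in floxed ileum, against 3.13, 2.28 and 3.07 in knockout colon and 2.37, 2.91 and 2.62 in floxed colon.

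Gzma and Gzmb encode proteases that cytotoxic lymphocytes release into their targets. Gzma read 3.84, 3.79 and 3.21 in knockout ileum, 3.68, 2.95 and 3.45 in floxed ileum, 3.84, 3.06 and 3.64 in knockout colon and 3.18, 3.15 and 3.67 in floxed colon. Gzmb read 4.55, 3.63 and 3.99 in knockout ileum, 3.75, 3.63 and 3.81 in floxed ileum, 3.53, 3.56 and 4.00 in knockout colon and 4.12, 4.02 and 3.81 in floxed colon. Groups overlapped for both genes. The knockout minus floxed difference of Gzmb was 0.33 in ileum and -0.29 in colon, and the difference between these, 0.61 (95% interval -0.04 to 1.27), was not called (limma adjusted p = 1.00). Granzymes form a family of similar sequence, and signal from relatives on their rows was not tested.

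Ccl5, a chemokine that memory and cytotoxic T cells store, was high on 2 of the 12 arrays. It read 5.69 on knockout ileum array 1 and 5.52 on knockout colon array 1, and 3.48 and 3.97 on the other knockout ileum arrays and 3.64 and 4.02 on the other knockout colon arrays. Floxed ileum arrays read 3.83, 3.82 and 4.39, and floxed colon arrays 4.06, 4.14 and 4.21. The labels do not say whether the arrays numbered 1 share a mouse.

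The 2 high values of Ccl5 rested on some of its 6 rows more than on others. The junction rows read 6.02 and 5.07 on knockout ileum array 1 and 5.09 and 5.95 on knockout colon array 1, and between 1.54 and 4.13 on the other 10 arrays. The brightest exon row read 7.04 and 7.19 on these arrays, against 6.32 to 6.95 on the others. A further exon row read 3.08 and 3.75 there and was not high.

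The knockout minus floxed difference of Ccl5 was 0.36 in ileum (95% interval -0.76 to 1.49, limma adjusted p = 0.871) and 0.26 in colon (-0.87 to 1.38, adjusted p = 0.927). Without knockout ileum array 1 it was -0.29 in ileum, and without knockout colon array 1 it was -0.31 in colon. With exon rows alone it was 0.10 in ileum and -0.07 in colon. These arrays also had the lowest mean of the background control rows in their groups, 6.01 on knockout ileum array 1 and 6.32 on knockout colon array 1, where the other arrays ran from 6.30 to 7.06, and the part of this in the result was not tested.

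Many other genes were high on the same pair of arrays. Of all 31276 genes, 2821 (9.02%) read higher on both than on any of the other 10, among them the member Gzma, by a small margin. So did 3 of 11 markers of macrophages and dendritic cells (C1qa, Cd68 and Csf1r), 2 of 6 fibroblast markers (Dcn and Pdgfra) and 1 of 8 markers of B and plasma cells (Jchain). The same held for 1 of 12 epithelial genes that act on intraepithelial lymphocytes (Il18) and 3 of 18 genes of homing receptors and ligands (Ccl28, Cdh1 and Cxcl16). The mean of the macrophage and dendritic cell markers was 4.99 on knockout ileum array 1 and 4.75 on knockout colon array 1, against 4.37 to 4.61 on the other arrays, and that of the fibroblast markers was 5.77 and 5.72, against 4.86 to 5.47. For smooth muscle markers the mean was 7.05 and 5.61, against 4.97 to 6.16, and for epithelial markers 8.48 and 7.84, against 6.98 to 8.04. The count was 0 for the receptor signalling, constant region, helper and cytotoxic lists and for the markers of epithelium, smooth muscle, endothelium, mast cells and natural killer and innate lymphoid cells. The part of these in the Ccl5 values was not tested, and the markers named here were chosen after their values were seen.

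The question the study's design puts first is what the knockout changed, and none of the 10 members was called between knockout and floxed mucosa. This held in ileum, in colon and averaged over both, where 0 of 10 passed limma's adjusted p of 0.05 and 0 of 10 had an unadjusted p under 0.05. Of all genes 0% were called in each of these contrasts after adjustment, and an unadjusted p under 0.05 was found for 6.65% in ileum, 4.78% in colon and 10.7% over both. The interaction of genotype and tissue called 0 of 10 members, with 0 under an unadjusted p of 0.05, where 2.48% of all genes were under it and 0% were called. For no member did the knockout and floxed arrays of a tissue stand apart, while 11% of all genes did so in ileum and 10.2% in colon.

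**Figure D4:**
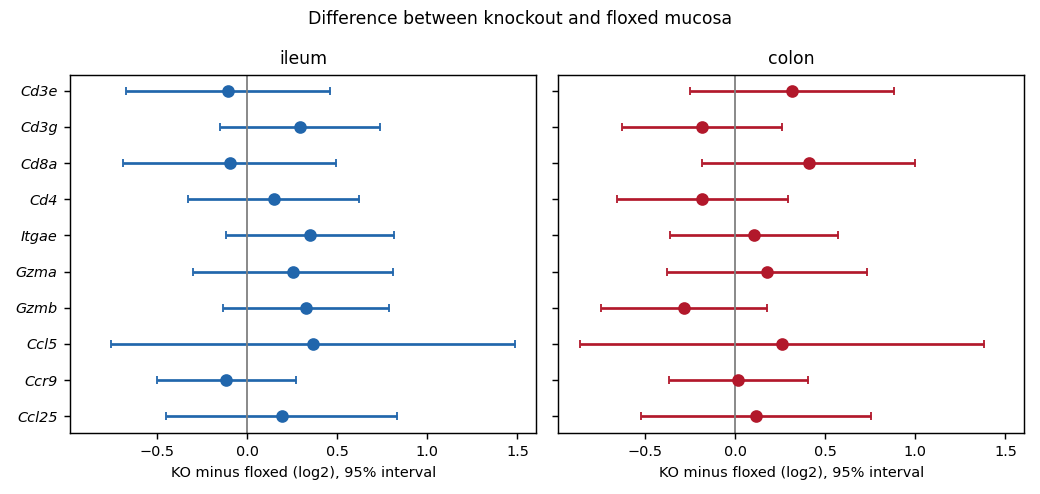
Knockout minus floxed difference (log2, horizontal axis) of the 10 genes with 95% intervals, in ileum (left) and colon (right), from limma's fit to 12 arrays. All 20 intervals hold 0, and those of Ccl5 are the widest.

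Knockout values were on average above floxed values for 7 of 10 members in ileum, 7 of 10 in colon and 8 of 10 over both, where 48.7%, 49% and 47% of all genes had a difference above 0. The median difference was 0.22 in ileum against -0.01 over all genes, 0.11 in colon against -0.01, and 0.13 over both against -0.01.

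These counts and medians rested on single arrays, as leaving out each array, chosen after seeing the data, showed. In ileum, 5 of 10 members were above floxed without knockout array 1, with a median of 0.04, and the median was 0.09 without floxed array 2 and 0.13 without floxed array 3. In colon, 6 of 10 were above floxed without knockout array 1, with a median of 0.02, and 5 of 10 without floxed array 2, with a median of 0.04. The colon median was 0.07 without floxed array 1 and 0.20 without floxed array 3. Over both tissues the median was 0.03 without knockout ileum array 1 and 0.05 without knockout colon array 1 or floxed colon array 2. It was 0.08 without floxed ileum array 2 and 0.20 without floxed colon array 3. The smallest adjusted p of a member was 0.716 in ileum, 0.844 in colon and 0.552 over both, each from limma. For the 9 members other than Ccl5 the 95% intervals lay between -0.69 and 0.83 in ileum and between -0.75 and 1.00 in colon. They describe the measured log2 differences. With readings in the range of the negative controls, they do not limit a change in RNA.

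Markers of other cells, and the arrays' background, also differed between the genotypes without a call. Of 8 epithelial markers 7 were on average above floxed in each tissue. Their mean per array ran from 7.97 to 8.48 in knockout ileum against 7.23 to 8.04 in floxed ileum, and from 7.35 to 7.91 in knockout colon against 6.98 to 7.72 in floxed colon. All 6 smooth muscle markers were above floxed in both tissues. Their mean ran from 5.55 to 7.05 in knockout ileum against 5.11 to 5.85 in floxed ileum, with the highest value on knockout ileum array 1, and from 5.12 to 5.68 in knockout colon against 4.97 to 5.55 in floxed colon. Of 8 B and plasma cell markers 7 were below floxed in ileum and 6 in colon, and the ranges of their mean overlapped in both tissues. Of 6 fibroblast markers 6 were above floxed in ileum and 5 in colon, with medians of 0.20 and 0.17. Of 11 markers of macrophages and dendritic cells 7 were above floxed in each tissue. For both of these lists the ranges of the mean overlapped in each tissue, and knockout array 1 was the highest in each. The background control rows read 6.01 to 6.38 in knockout ileum against 6.60 to 7.06 in floxed ileum, which did not overlap, and 6.32 to 6.76 in knockout colon against 6.61 to 6.97 in floxed colon. The part of these in the members' values was not tested, and with the background as a covariate 0 of 10 members were called.

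The other genes of T cells were not called between the genotypes either. Of 15 measured genes of the T cell receptor complex and its signalling, 0 were called between knockout and floxed mucosa in either tissue, with median differences of -0.09 in ileum and -0.01 in colon. The smallest p fell on Cd28, a co-stimulatory receptor, in ileum (-0.34, adjusted p = 0.711) and on Lat, an adaptor of receptor signalling, in colon (0.46, adjusted p = 0.844). Of 3 constant regions of the T cell receptor 0 were called, and in each tissue 2 were above floxed and 1 below. The median differences were 0.05 in ileum and 0.03 in colon. Trac, that of the α chain, covered by 2 rows, was at 0.40 in ileum and 0.20 in colon. Trdc, that of the δ chain, went the other way. Its means were 3.25 in knockout against 3.34 in floxed ileum, and 3.13 in knockout against 3.41 in floxed colon. Trac read 4.10, 3.25 and 3.90 in knockout ileum against 3.42, 3.27 and 3.38 in floxed ileum, and these overlap.

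Of 22 further genes of intraepithelial and cytotoxic lymphocytes 0 were called in either tissue. On average 15 of the 22 were below floxed in ileum and 17 in colon, where 51.3% and 51% of all genes were below. The median differences were -0.08 and -0.11. Without floxed ileum array 2, 10 of the 22 were below floxed in ileum, with a median of 0.004. In colon 14 were below without knockout colon array 1 or floxed colon array 2. Nkg7, a granule protein of cytotoxic cells, read 4.22, 4.31 and 4.39 in knockout ileum against 3.79, 3.45 and 3.86 in floxed ileum. The arrays did not overlap, but the difference of 0.60, opposite in sign to most of the list, did not pass (limma adjusted p = 0.711). In colon the smallest p was that of Tbx21, a transcription factor of cytotoxic and type 1 helper cells (-0.31, limma adjusted p = 0.844). It read 4.21, 4.05 and 4.41 in knockout colon against 4.57, 4.60 and 4.44 in floxed colon. In ileum it read 4.24, 4.39 and 4.19 in knockout against 4.73, 4.61 and 4.47 in floxed mice. The arrays of Tbx21 overlapped in neither tissue. Of all genes, 11% did not overlap in ileum and 10.2% in colon.

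Of 8 helper and regulatory T cell genes 0 were called between genotypes, with the smallest p on Gata3, of type 2 helper cells, in ileum (-0.24, adjusted p = 0.720) and on Il7r, a receptor for a survival cytokine, in colon (-0.30, adjusted p = 0.844). Of 18 homing receptors and ligands 0 were called. S1pr1, which guides lymphocytes out of tissue, read 4.40, 4.73 and 4.67 in knockout ileum against 5.0, 5.59 and 4.83 in floxed ileum (-0.54, limma adjusted p = 0.711). In colon it read 4.75, 4.84 and 4.72 in knockout against 4.91, 5.01 and 5.18 in floxed mice. Its arrays overlapped in neither tissue, as for 11% of all genes in ileum and 10.2% in colon. Cdh1, which encodes E-cadherin, the ligand of the Itgae product, had a difference of 0.48 in colon (limma adjusted p = 0.844). Of 12 epithelial genes that act on intraepithelial lymphocytes 0 were called between genotypes. Il18, a cytokine of epithelial cells, read 6.27, 5.08 and 4.95 in knockout ileum against 4.59, 3.99 and 4.97 in floxed ileum (0.92, adjusted p = 0.711), and Btnl4 had a difference of 0.50 in colon (adjusted p = 0.844). An unadjusted p under 0.05 was found in ileum for 1 gene of receptor signalling, 3 cytotoxic genes, 2 homing genes and 2 epithelial genes and for 0 constant regions and 0 helper genes, where 6.65% of all genes had one. In colon it was found for 1 cytotoxic gene and 0 genes of the other lists, where 4.78% of all genes had one.

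Between the tissues, calls beside Ccl25 fell on epithelial genes that act on intraepithelial lymphocytes, and on none of the lymphocyte lists. Butyrophilin-like genes encode surface proteins of gut epithelium, and in mice Btnl1 and Btnl6 products together maintain a group of intraepithelial γδ T cells. Over both genotypes 2 of the 12 epithelial partner genes, Btnl2 and Btnl6, were higher in ileum, against 1.03% of all genes, and 10 of the 12 had a difference above 0 with a median of 0.16.

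Btnl2 read 5.66, 5.95 and 5.16 in knockout ileum and 5.72, 5.05 and 5.28 in floxed ileum, against 4.47, 4.10 and 4.32 in knockout colon and 4.00, 4.36 and 4.44 in floxed colon. Btnl6 read 7.52, 7.22 and 6.83 in knockout ileum and 7.26, 6.69 and 7.0 in floxed ileum, against 6.43, 5.94 and 5.90 in knockout colon and 6.07, 4.87 and 5.84 in floxed colon. For both genes all ileum arrays stood above all colon arrays. The difference over both genotypes was 1.19 for Btnl2 (95% interval 0.85 to 1.53, limma adjusted p = 0.00109) and 1.25 for Btnl6 (0.80 to 1.69, adjusted p = 0.00548), and both calls held under the 18 alternatives. Btnl6 was called in neither genotype alone (1.10 in knockout mice, adjusted p = 0.157, and 1.39 in floxed mice, adjusted p = 0.0599), though it was called in 2 and 5 of the 18 alternatives there.

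Within knockout mice Btnl2 was called (1.30, adjusted p = 0.0143), but not without knockout colon array 2 (0.0971) or 3 (0.0526) or knockout ileum array 1 (0.0589) or 2 (0.0699). Within floxed mice it missed the threshold (1.08, adjusted p = 0.0574). Btnl1 and Btnl4 differed by 0.72 (0.31 to 1.14, adjusted p = 0.101) and 0.58 (0.17 to 0.99, adjusted p = 0.226) over both genotypes and were not called. Btnl4 and Btnl6 are close in sequence, and single values of either are uncertain.

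**Figure D5:**
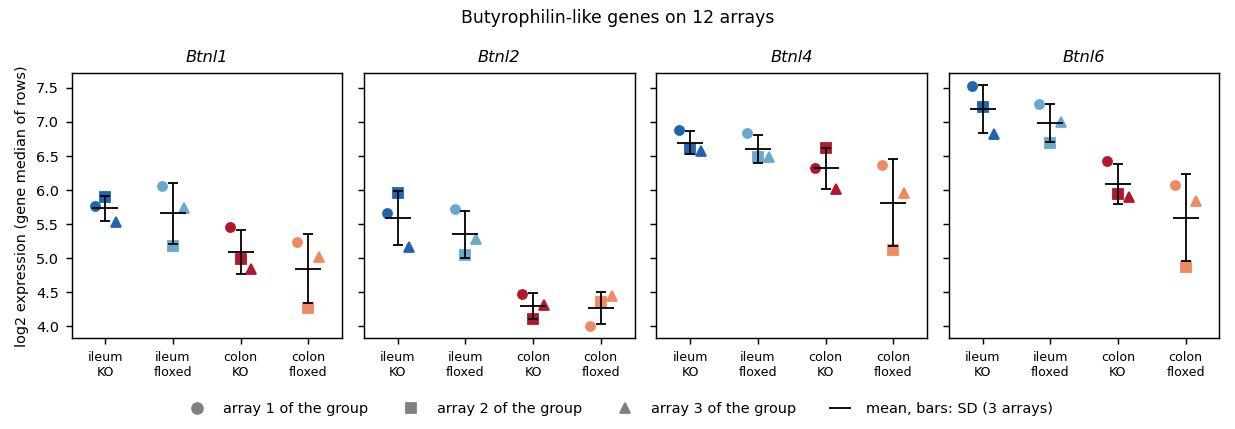
Gene values (log2, vertical axis) of Btnl1, Btnl2, Btnl4 and Btnl6 on the 12 arrays by group, with the mean and its SD in black. For Btnl2 and Btnl6 all 6 ileum arrays lie above all 6 colon arrays, and floxed colon array 2 is the lowest colon array of Btnl1, Btnl4 and Btnl6.

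Some markers of other cells differed between the tissues. Of 8 epithelial markers 6 were higher on average in ileum over both genotypes and 2 lower, with a median of 0.23, where 47.2% of all genes were above 0. Of these 8, Vil1 (1.44, limma adjusted p = 0.00192) and Krt20 (1.54, adjusted p = 0.00619), of mature enterocytes, were called higher. Of 6 fibroblast markers 1 was called lower in ileum, Col3a1, a collagen (-0.56, adjusted p = 0.0114). Of 8 markers of B and plasma cells, 11 of macrophages and dendritic cells, 5 of natural killer and innate lymphoid cells, 6 of mast cells, 6 of smooth muscle and 5 of endothelium, 0 were called over both genotypes, where an unadjusted p under 0.05 was found for 0, 1, 1, 1, 4 and 1 of them and for 9.51% of all genes. The part of these markers in the tissue differences of Ccl25, Btnl2 and Btnl6 was not tested.

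None of the lymphocyte lists held a call between the tissues, by limma over both genotypes. Of 15 genes of the receptor complex and signalling 1 had an unadjusted p under 0.05, which 9.51% of all genes had, namely Ptprc, the CD45 of all leukocytes (0.35, adjusted p = 0.401). Of 3 constant regions 1 also had an unadjusted p under 0.05, namely Trac, which differed by 0.40 (adjusted p = 0.279). Of 22 cytotoxic genes 0 had an unadjusted p under 0.05, with the smallest on the granzyme Gzmc (0.29, adjusted p = 0.571), and the same count of 0 held for the 8 helper genes, led by Il17a (-0.17, adjusted p = 0.861), and the 18 homing genes, led by Itga4 (0.19, adjusted p = 0.653).

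The members did not share a common pattern over the 12 arrays. Pearson's r over the 45 pairs of members ran from -0.64 to 0.75 with a median of 0.22, and 32 were above 0. These points share arrays and their background, and 12 arrays in 4 groups are few.

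For the 3 members with the largest SD over the arrays, the genes of most similar pattern were sought among 11327 named genes brighter than the median gene. Those of Ccl25 were Defa35, Defa34 and Defa41 (r = 0.970, 0.967 and 0.966), which encode α-defensins, the antimicrobial peptides of Paneth cells in the small intestine. The 12 values of Ccl25 fall into 2 sets by tissue, so the likeness was also taken within each tissue. Over the 6 ileum arrays r was 0.885, 0.870 and 0.829, and over the 6 colon arrays it was -0.388, -0.628 and -0.566. The genes were chosen over all 12 arrays, these included, so the values within a tissue are no separate check of the likeness. α-Defensin genes are nearly identical to each other, so which of them gave the signal is uncertain.

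The genes closest to Ccl5 were Mrpl35, Slc40a1 and Jpt1 (r = 0.947, 0.928 and 0.916). Without knockout ileum array 1 and knockout colon array 1 these became 0.634, 0.514 and 0.593. Those closest to Cd8a were Erich5, B4galnt1 and Plvap (r = 0.923, 0.860 and 0.857). Without floxed colon array 2 and floxed ileum array 2 they became 0.654, -0.018 and 0.306. The likeness to both genes thus rested in large part on 1 or 2 arrays.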

How the data were processed

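Biotin-labelled RNA of 12 mucosa samples was hybridised to exon and junction arrays. The deposited table holds log2 expression values per row, and RMA and Partek were used per the submitters' processing notes, with no version, role or order given. For the genome build, the sources used here give none. The table held 725678 rows, of which 437027 were exon regions, 282044 junctions and 6607 controls. Rows were named through the platform annotation, and 580167 rows with 1 symbol entered gene values, the median of rows per array.

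A mean per group (by title) was fitted over all 31276 genes, and likewise over 719071 rows, by lmFit and eBayes of limma 3.58.1 (R 4.3.3), leaving 8 residual degrees of freedom and 4.72 from the prior. P-values were two-sided, Benjamini-Hochberg adjusted within each contrast over every gene, and called under 0.05. The script was tested on simulated data. The number of arrays limits the precision.

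The members and lists were chosen with earlier results of these data known. Named beside the members were called genes of each list (up to 4 by p, 2 for markers), or the gene of smallest p where none was called, and the 3 genes most correlated with each of the 3 most variable members. Btnl1 and Btnl4 in the tissue contrasts were named after their values were seen. Some listed genes are not reported here. Alternatives were leaving out each array, a replicate block, quantile normalization, means of rows, exon rows alone, genes above the median gene alone, and array background (mean of 11 control rows of 15 to 25 G or C in 25 bases) as a covariate.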

Additional observations from a re-analysis of the deposited data

How the results depend on the processing

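The count of members called was 0 of 10 in the knockout contrasts and their interaction under every alternative named under the processing, with adjusted p of 0.308 or more for the members. Between the tissues it was 1 of 10, and leaving out 1 array at a time gave 0 to 1 in knockout mice and 0 to 1 in floxed mice, and 1 throughout over both genotypes. Of 1232 values of single members under alternatives, 8 lost a call, all of them Ccl25 within 1 genotype, and no called value changed sign. Values that were not called changed sign in 133 cases, so no direction is drawn from them. Restricting the fit to genes brighter than the median gene left out Cd3g, Itgae, Gzma and Ccr9. Of all genes, 566 were called between the tissues over both genotypes, 247 in knockout and 184 in floxed mice. With array background as a covariate these were 1067, 415 and 334, and leaving out 1 array gave 404 to 613, 135 to 285 and 93 to 218. A fit with 1 array less has fewer samples, and the cause of the other changes was not tested. Whether the replicate numbers shared by the groups pair the samples is not settled by these data. Over 6 pairs of groups, deviations of arrays of the same number correlated between -0.255 and 0.531, and in no pair of groups were all 3 above 0.1. For the arrays numbered 1, though, all 6 correlations were above 0, from 0.21 to 0.531. What these arrays share was not tested. With the replicate number as a block the counts were 759, 339 and 251, and 1 of 10 members, Ccl25, was called in each tissue contrast and 0 in the others. The alternatives of the Btnl genes were chosen after seeing the data. Signal near the level of the negative controls limits what can be seen for most members.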
